A study of Mus musculus with 6 samples.

Results

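Plaur, Plau and Tgm2 were followed in mouse iTreg, regulatory T cells induced in culture, as 3 of the 47643 annotated genes in the tables. They were found by gene name among the rows with an Ensembl ID, 1 row each. Plaur and Tgm2 had been selected on the difference in their levels between prostaglandin E2 (PGE2) and vehicle in these same libraries, so this difference is described without a test. Plau was added because it encodes the ligand of the receptor that Plaur encodes. All cells were splenic CD4+ T cells from C57BL/6 mice of the genotype Foxp3-DTR/EGFP, in which EGFP reports Foxp3, the lineage factor of regulatory T cells. They were activated through CD3 and CD28 in the presence of TGF-β for 2 days. They then received 100 nM PGE2 for 6 h (3 libraries) or the vehicle DMSO for 6 h (3 libraries), and Foxp3+ cells were sorted on the reporter. Nothing in the labels ties replicates to separate mice or cultures; p-values thus cover the spread between these samples, which may be technical.

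PGE2 is a lipid mediator whose receptors EP2 and EP4 raise cyclic AMP in T cells. Urokinase, the product of Plau, is a secreted serine protease that converts plasminogen to plasmin, a protease that degrades fibrin and other matrix proteins. The urokinase receptor, the product of Plaur, holds urokinase on the cell surface through a lipid (GPI) anchor and has no cytoplasmic part; it also binds vitronectin and acts together with integrins. Transglutaminase 2, the product of Tgm2, joins glutamine and lysine residues of proteins in the presence of calcium, binds GTP, and at the cell surface associates with integrins and fibronectin. Both Plaur and Tgm2 are well known from macrophages and endothelial cells.

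In the mm10 coordinates of the files, Plaur (ENSMUSG00000046223.10) lies on the plus strand of chromosome 7 from 24462484 to 24475968, Plau (ENSMUSG00000021822.2) on the plus strand of chromosome 14 from 20836662 to 20843388, and Tgm2 (ENSMUSG00000037820.15) on the minus strand of chromosome 2 from 158116402 to 158146436. GENCODE M21 annotates each as protein coding, with 6 transcripts for Plaur, 2 for Plau and 4 for Tgm2. The values are those of the whole gene and do not separate transcripts. Of the 3 promoters, that of Plaur was in the RefSeq table used here (build GRCm38.p6), and it is shown because Plaur had the largest difference of the 3 genes. It spans 250 bases before and 50 bases after the annotated start site, chr7:24462233-24462532 on the plus strand, and capitals mark matches to an AP-1 motif and to a GC box.
Plaur promoter: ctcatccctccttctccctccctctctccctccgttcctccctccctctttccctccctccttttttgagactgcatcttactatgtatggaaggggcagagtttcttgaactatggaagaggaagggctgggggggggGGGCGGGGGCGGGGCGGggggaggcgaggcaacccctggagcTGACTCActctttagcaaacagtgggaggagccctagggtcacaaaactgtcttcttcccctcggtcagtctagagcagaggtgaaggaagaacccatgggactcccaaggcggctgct
The AP-1 motif, searched as TGACTCA on both strands, was present once, from base -69 to base -63 relative to the start site, and 5.2% of the 32851 promoters of this length in the table hold it. The GC box, searched as GGGCGG on both strands, was present 3 times between bases -111 and -95, the last pair of matches sharing 1 base, and 35.7% of promoters hold it. The core of the cAMP response element, searched as TGACG on both strands, and that of the Nur77 family element, searched as AGGTCA on both strands, were not in this window; 20.8% and 16.3% of promoters hold them. These are letter matches only.

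Levels are FPKM (fragment counts that the authors scaled by transcript length and library size), so levels of different genes can be set side by side. The depth of the libraries, taken as coverage divided by FPKM, was 4.54 to 5.45 gigabases with PGE2 and 3.996 to 5.12 with vehicle, and replicate 3 was the shallowest in both groups. Of 12113 genes whose mean reached 1 FPKM, limma called 69 as higher with PGE2 (0.57%) and 29 as lower (0.239%), 0.809% in all, at an adjusted p under 0.05. With the replicate number as a block, 215 were higher (1.77%) and 180 lower (1.49%), 3.26% in all. The block is an alternative, since the pairing of replicate numbers 1 and 2 was not settled.

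The urokinase receptor transcript was low with vehicle and of middling abundance with PGE2. Plaur stood at 10.9, 11.5 and 11.2 FPKM in PGE2 replicates 1, 2 and 3, against 1.75, 2.19 and 1.503 FPKM in vehicle replicates 1, 2 and 3. All 3 PGE2 libraries were above all 3 vehicle libraries, and the lowest PGE2 library was 4.99 times the highest vehicle library; of all tested genes 7.81% lay wholly above, and 19.7% did not overlap in either direction. The mean was 11.2 ± 0.276 FPKM with PGE2 and 1.81 ± 0.35 FPKM with vehicle (SD, n = 3 each), a 6.17-fold ratio of means and a difference of 2.12 on the log2(FPKM + 1) scale. The PGE2 libraries lay close together, with a coefficient of variation of 2.46%, against 19.3% in the vehicle libraries. Among tested genes, the level of Plaur lay at percentiles 53.2 to 54.8 in the PGE2 libraries and 7.51 to 12.004 in the vehicle libraries. Within replicate numbers 1, 2 and 3 the ratio of PGE2 to vehicle FPKM was 6.26, 5.24 and 7.43.

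The coverage of Plaur averaged 32.0 reads deep with PGE2 and 5.04 with vehicle, and coverage per gigabase of depth gave a 6.00-fold ratio of means. Since depth was taken from coverage and FPKM, this ratio is no independent measure. With 1 added before the logarithm, the difference was 1.84 in coverage per gigabase, in which Plaur stood at 6.17 to 6.53 with PGE2 and 0.833 to 1.28 with vehicle, and 2.12 in FPKM. The locus that the authors assembled from the reads matched the annotated span of Plaur almost exactly in all 6 libraries, covering at least 99.99% of it. Its FPKM was 10.9, 11.7 and 11.1 in PGE2 replicates 1, 2 and 3 and 1.75, 2.19 and 1.503 in vehicle replicates 1, 2 and 3.

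**Figure D1:**
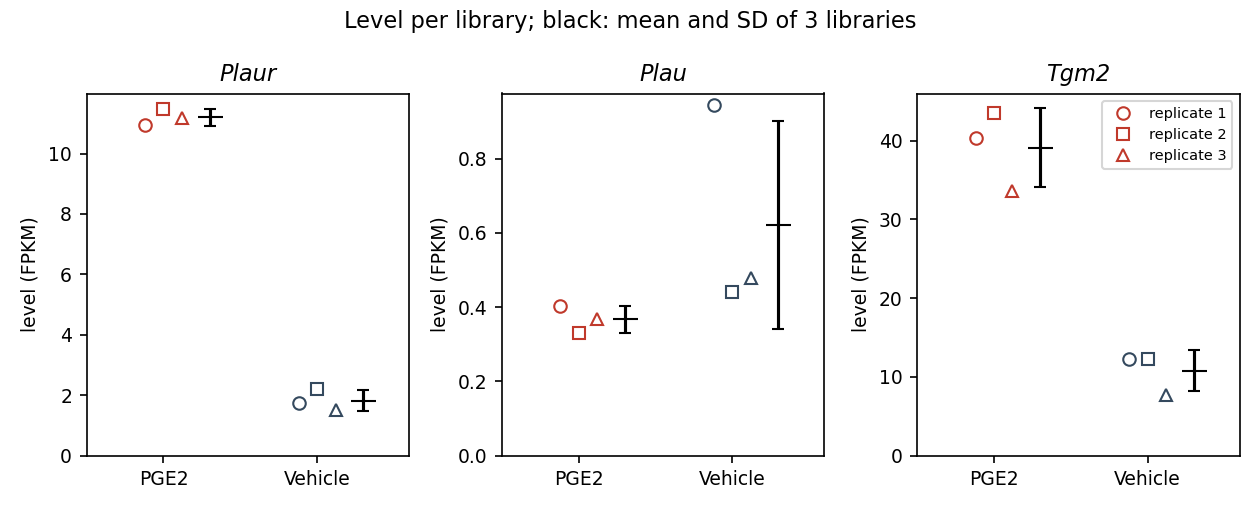
Level of Plaur, Plau and Tgm2 in FPKM (vertical axes from 0, one scale per gene) in each library, PGE2 left and vehicle right; symbols mark the replicate number, and black bars show mean and SD of 3 libraries. Plaur and Tgm2 were higher in all 3 PGE2 libraries than in any vehicle library, and Plau was below 1 FPKM throughout.

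The transcript of the ligand was scarce and did not follow that of the receptor. Plau was at 0.403, 0.331 and 0.369 FPKM in PGE2 replicates 1, 2 and 3, against 0.944, 0.440 and 0.479 FPKM in vehicle replicates 1, 2 and 3. The PGE2 libraries were all lower than the vehicle libraries, but the closest values of the groups, 0.403 with PGE2 and 0.440 with vehicle, lay only 1.09-fold apart, and vehicle replicate 1 stood far above the others. The mean was 0.368 ± 0.0362 FPKM with PGE2 and 0.621 ± 0.281 FPKM with vehicle (SD, n = 3 each), a difference of -0.23 on the log2(FPKM + 1) scale, and -0.09 without vehicle replicate 1. Plau fell under the filter of 1 FPKM and was not among the 12113 tested genes. With the filter lowered to 0.1 FPKM it did not pass (limma, two-sided, adjusted p = 0.57 over 16743 genes), nor with no filter (adjusted p = 0.68 over 26484 genes). The coverage was 1.68 to 2.20 reads deep with PGE2 and 1.91 to 4.84 with vehicle, so that this depth limits any statement on Plau.

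The assembled locus of Plau also differed between libraries. In PGE2 replicates 1, 2 and 3 it reached over 50.3%, 56.1% and 56.4% of the annotated span, the end with higher coordinates. In vehicle replicate 1 it covered the whole gene and in vehicle replicate 2 it covered 93.8%, whereas in vehicle replicate 3 there were 2 fragments, of which the one used here covered 22.2%. The FPKM of this locus was 0.581, 0.493 and 0.525 with PGE2 and 0.944, 0.490 and 0.449 with vehicle, and in this measure the groups overlapped.

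Receptor and ligand therefore stood in different proportions in the groups. The ratio of Plaur to Plau FPKM was 27.1, 34.7 and 30.3 in PGE2 replicates 1, 2 and 3, against 1.85, 4.98 and 3.14 in vehicle replicates 1, 2 and 3. Its mean was 30.7 ± 3.81 with PGE2 and 3.32 ± 1.57 with vehicle (SD, n = 3 each). Since Plaur was picked for its difference, this ratio is a description.

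Tgm2 was the most abundant of the 3 genes in every library. It was at 40.3, 43.5 and 33.6 FPKM in PGE2 replicates 1, 2 and 3, against 12.3, 12.2 and 7.76 FPKM in vehicle replicates 1, 2 and 3. The groups did not overlap, the lowest PGE2 library being 2.73 times the highest vehicle library, and replicate 3 was the lowest in each group. The mean was 39.1 ± 5.04 FPKM with PGE2 and 10.8 ± 2.61 FPKM with vehicle (SD, n = 3 each), a 3.64-fold ratio of means and a difference of 1.79 on the log2(FPKM + 1) scale. Its level lay at percentiles 81.4 to 85.7 of tested genes with PGE2 and 42.4 to 56.0 with vehicle. Within replicate numbers 1, 2 and 3 the ratio of PGE2 to vehicle FPKM was 3.27, 3.56 and 4.34, highest in number 3, where both levels were lowest. The depth was also lowest in replicate 3 of each group; its part in the lower level was not tested.

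Coverage of Tgm2 averaged 155 reads deep with PGE2 and 40.4 with vehicle, and the assembled locus had the annotated start and end in all 6 libraries. Over the other measures, scalings and left-out libraries the log2 difference was 1.59 to 1.89, the lowest without vehicle replicate 3. The ratio of Tgm2 to Plaur FPKM was 3.68, 3.79 and 3.01 in PGE2 replicates 1, 2 and 3, against 7.04, 5.58 and 5.16 in vehicle replicates 1, 2 and 3. In size of log2 difference Plaur ranked 2 and Tgm2 ranked 5 of 12113 tested genes, between Ramp3 at 3.04 above Plaur and Crem at 1.75 below Tgm2. A log2 difference of at least 1 in this direction was found for 39 tested genes (0.322%). Since both genes were picked for large differences, these ranks describe the choice.

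**Figure D2:**
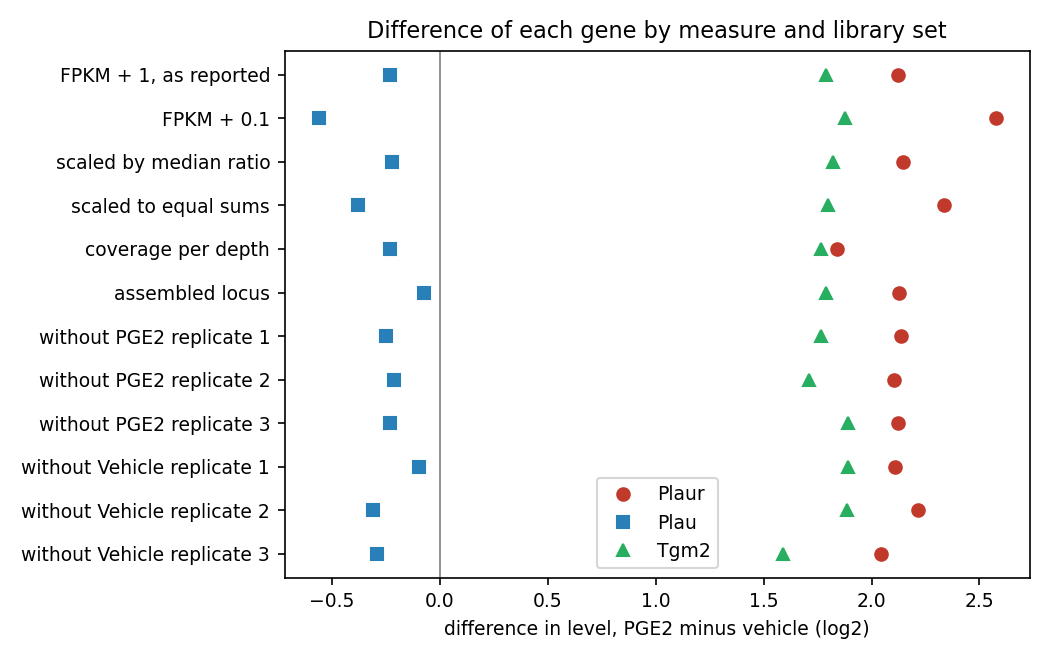
Difference in log2 level, PGE2 minus vehicle, of Plaur, Plau and Tgm2 (horizontal axis) under each measure, scaling and left-out library (rows). Plaur ran from 1.84 to 2.58, Tgm2 from 1.59 to 1.89 and Plau from -0.56 to -0.07.

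None of the tested protein-coding genes next to or overlapping the members passed the test, with or without the block. Rprd1b, which encodes a regulator of RNA polymerase II, lies on the opposite strand and shares 15896 bases of its span with Tgm2, so reads there could be assigned to either gene if strand was not used. Rprd1b was at 10.1, 10.7 and 9.70 FPKM with PGE2 and 9.60, 10.4 and 11.3 FPKM with vehicle, and the groups overlapped (log2 difference -0.03, SE 0.09, adjusted p = 0.92 with limma). The libraries were made with a stranded kit, but whether the authors counted by strand is not given in the sources used here. Gm20412, another annotated gene that overlaps Tgm2 on the opposite strand, was not among the neighbours compared. Beside Plaur, Smg9, a factor of nonsense-mediated decay 39.7 kb away, had a difference of 0.02 (adjusted p = 0.97 with limma), and Zfp428, 31.0 kb away on the other side, had 0.09 (adjusted p = 0.88). Beside Plau, Camk2g, a calcium-dependent kinase, had a difference of -0.02 and Vcl, the adhesion protein vinculin, of -0.10, with adjusted p = 0.96 and 0.89 with limma. Beside Tgm2, Tti1 had a difference of -0.23 (adjusted p = 0.48) and Ralgapb of -0.23 (adjusted p = 0.71 with limma).

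**Figure D3:**
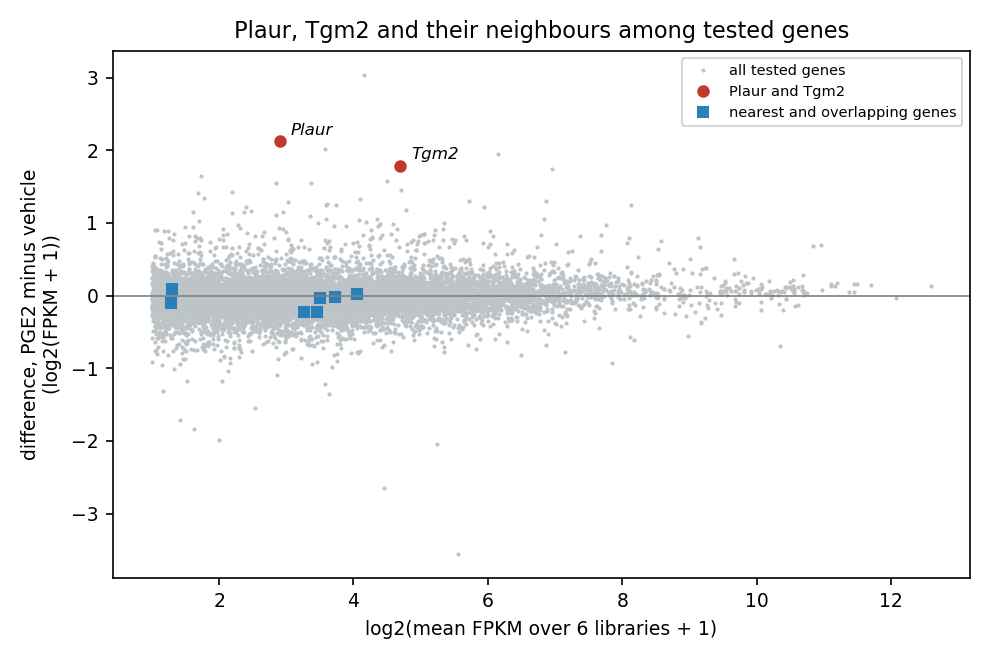
Difference in log2(FPKM + 1), PGE2 minus vehicle (vertical axis), against log2 of the mean FPKM plus 1 (horizontal axis) for the 12113 tested genes in grey. Plaur at 2.12 and Tgm2 at 1.79 lie above nearly all genes. The nearest and overlapping tested protein-coding genes, as blue squares, lie between -0.23 and 0.09.

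The genes whose profile over the 6 libraries was closest to Plaur were Tgm2, Dgat1, an enzyme of triacylglycerol synthesis, and Sema4c, a semaphorin. The root mean square distance between centred log2(FPKM + 1) profiles was 0.24, 0.26 and 0.27, out of 9676 named genes compared. Closest to Tgm2 were Dgat1 at 0.12, Fosl2, an AP-1 subunit, at 0.21 and Cables1 at 0.24. Dgat1 was at 118, 126 and 90.6 FPKM in PGE2 replicates 1, 2 and 3, against 35.9, 30.6 and 19.6 FPKM in vehicle replicates 1, 2 and 3, so that it shared with Tgm2 the low values of replicate 3 in both groups. These 6 libraries fall into 2 groups, and a close profile says little more than a difference of like size.

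Around the members, 66 other genes of the lists on urokinase, plasminogen, transglutaminases, retinoids and matrix proteases were tested, and limma called none of them in either direction. At an unadjusted p under 0.05, 8 were higher and 5 lower with PGE2, against 5.46% higher and 7.59% lower of all tested genes. With the replicate block 5 passed as higher (7.58%, against 1.77% of all tested genes) and 2 as lower (3.03%, against 1.49%). The groups did not overlap for 11 that were higher with PGE2 (16.7%, against 7.81% of all tested genes) and 7 that were lower (10.6%, against 11.9%). The median log2 difference of the 66 genes was 0.00, and that of all tested genes -0.03.

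Among ligands and activators the transcripts were absent or nearly so. Plg, Vtn and Srpx2, which encode plasminogen, vitronectin and a further ligand of the receptor, were listed at 0 in all 6 libraries. Plat, the tissue-type plasminogen activator, was at 0.129 ± 0.0611 FPKM with PGE2 and 0.110 ± 0.0472 FPKM with vehicle (SD, n = 3 each). The proteins can come from serum or other cells, which these libraries do not measure.

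Of 5 genes for proteins that hold plasminogen at the cell surface, 4 were tested, and Amot, angiomotin, was under 0.1 FPKM in every library. Of the 4 tested plasminogen receptor genes all 4 had a higher mean with PGE2, but the log2 difference of S100a10 was only 0.01. Their median log2 difference was 0.24, against -0.03 for all tested genes. Anxa2 passed as higher with the replicate block, as did 1.77% of all tested genes. Anxa2, annexin A2, was at 136, 121 and 132 FPKM in PGE2 replicates 1, 2 and 3, against 96.7, 71.4 and 77.4 FPKM in vehicle replicates 1, 2 and 3, with no overlap. Its log2 difference was 0.67 (SE 0.13, adjusted p = 0.068 with limma), and the block gave adjusted p = 0.017 (0.017 to 0.25 across alternatives). S100a10, the partner of annexin A2, was at 312 ± 9.37 FPKM with PGE2 and 311 ± 36.9 FPKM with vehicle, and the groups overlapped. Eno1, enolase 1, which is foremost a glycolytic enzyme, was the most abundant, at 933 ± 34.6 FPKM with PGE2 and 811 ± 39.0 FPKM with vehicle (SD, n = 3 each; adjusted p = 0.45 with limma). Plgrkt, a transmembrane plasminogen receptor, was at 40.3 ± 8.85 and 32.7 ± 3.66 FPKM with PGE2 and vehicle.

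Of 7 inhibitor genes, Serpine2 alone was tested. Serpine2, protease nexin 1, which inhibits urokinase and thrombin, was at 10.8, 9.42 and 9.66 FPKM in PGE2 replicates 1, 2 and 3, against 17.7, 14.9 and 13.5 FPKM in vehicle replicates 1, 2 and 3. All PGE2 libraries were lower than all vehicle libraries, with a log2 difference of -0.57 (SE 0.12, adjusted p = 0.084 with limma), and the block gave adjusted p = 0.024 (0.024 to 0.29 across alternatives). Serpinb2 and Serpina5 were listed at 0 in all 6 libraries.

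The list of receptors that clear urokinase and its complexes, which also held the receptor-associated protein gene Lrpap1, gave no call among 3 tested genes. These 3, Lrpap1, Igf2r and Sorl1, all had a lower mean with PGE2, with a median log2 difference of -0.05, against -0.03 for all tested genes. Igf2r, the mannose 6-phosphate receptor, was at 18.1 ± 1.32 FPKM with PGE2 and 18.6 ± 1.92 FPKM with vehicle (SD, n = 3 each; adjusted p = 0.93 with limma). Sorl1, a sorting receptor, was at 2.60, 2.39 and 1.496 FPKM with PGE2 and 3.46, 3.64 and 3.20 FPKM with vehicle, with no overlap and an adjusted p = 0.23 with limma. Vldlr, the very low density lipoprotein receptor, was under the filter and went the other way, at 1.38, 0.431 and 1.06 FPKM in PGE2 replicates 1, 2 and 3, against 0.232, 0.143 and 0.396 FPKM in vehicle replicates 1, 2 and 3. Its groups did not overlap, and it was not tested. Lrp1, the main clearance receptor of the urokinase receptor in other cells, stayed under 1 FPKM in every library.

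The list of urokinase receptor partners holds membrane proteins, mainly integrins, and signalling proteins inside the cell. None of its 11 tested genes was called without the block, and Itgb3 was the one called with it. Of the 11 genes 4 had a higher and 7 a lower mean with PGE2, with a median log2 difference of -0.06. The groups did not overlap for Itgb3, Rac1 and Itgb1, which was so for 19.7% of all tested genes. Itgb3, the β3 chain, which is a partner of both the urokinase receptor and transglutaminase 2, was at 22.8, 20.7 and 16.1 FPKM in PGE2 replicates 1, 2 and 3, against 11.8, 11.95 and 10.6 FPKM in vehicle replicates 1, 2 and 3. The groups did not overlap. The log2 difference was 0.73 (SE 0.13, adjusted p = 0.065 with limma), and the block gave adjusted p = 0.016 (0.016 to 0.24 across alternatives). It also passed without PGE2 replicate 3 (adjusted p = 0.028). Itgav, the αv chain that pairs with β3 in the vitronectin receptor, was at 7.52 ± 1.34 FPKM with PGE2 and 7.87 ± 0.112 FPKM with vehicle (SD, n = 3 each; adjusted p = 0.89 with limma). Itgb2, the β2 chain, was the most abundant partner, at 139 ± 11.8 and 145 ± 8.88 FPKM with PGE2 and vehicle. Rac1, a GTPase of the cytoskeleton, was at 82.3, 93.6 and 96.2 FPKM with PGE2 and 77.2, 71.5 and 77.1 FPKM with vehicle (log2 difference 0.26, adjusted p = 0.28 with limma). Itgb1, the β1 chain, was lower in every PGE2 library, at 29.3, 29.0 and 23.9 FPKM with PGE2 and 31.5, 32.2 and 34.0 FPKM with vehicle (log2 difference -0.25, adjusted p = 0.36 with limma). Fpr1, a formyl peptide receptor, was listed at 0 in all 6 libraries.

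Genes that share the protein fold of the urokinase receptor, the Ly6/uPAR domain family, held 8 tested genes among 37 found in the files, and none was called without the block. With the block 3 passed as higher with PGE2, against 1.77% of all tested genes, and 2 of the 3 are near-identical copies. The groups did not overlap for 4 genes higher and 3 lower with PGE2, against 7.81% and 11.9% of all tested genes. Ly6c2 was at 27.9, 38.9 and 33.7 FPKM with PGE2 and 20.8, 19.0 and 20.1 FPKM with vehicle, with no overlap (log2 difference 0.71, SE 0.12, adjusted p = 0.057 with limma; 0.034 with the block, range 0.034 to 0.23). Ly6c1, at 54.6 ± 6.14 and 31.6 ± 6.27 FPKM with PGE2 and vehicle (SD, n = 3 each), is a near-identical copy, so reads could be shared between both (adjusted p = 0.082 with limma; 0.044 with the block, range 0.044 to 0.28). Ly6a, or Sca-1, the most abundant of the family, was at 503, 550 and 751 FPKM in PGE2 replicates 1, 2 and 3, against 390, 380 and 492 FPKM in vehicle replicates 1, 2 and 3 (adjusted p = 0.28 with limma; 0.045 with the block, range 0.045 to 0.64). Replicate 3 was the highest in both groups. Ly6g5b was lower in every PGE2 library, at 10.7, 9.70 and 9.38 FPKM with PGE2 and 17.1, 12.3 and 18.04 FPKM with vehicle (log2 difference -0.61, SE 0.15, adjusted p = 0.13 with limma). Ly6e and Lynx1 were also lower in every PGE2 library, with log2 differences of -0.14 and -0.16. The median log2 difference of the 8 genes was 0.33. Of the other 29 genes, 13 were listed at 0 in all 6 libraries.

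Within the transglutaminase family Tgm2 was the predominant transcript in both groups. Tgm1, the enzyme of the cornified envelope in skin, was the other member with a mean of at least 1 FPKM, at 3.84, 3.31 and 2.87 FPKM in PGE2 replicates 1, 2 and 3, against 3.99, 3.62 and 3.36 FPKM in vehicle replicates 1, 2 and 3. The groups overlapped (log2 difference -0.11, SE 0.12, adjusted p = 0.80 with limma). Of the other 8 genes on this list, 4 were listed at 0 in all 6 libraries (Tgm3, Tgm5, F13b and Epb42). F13a1, the enzyme chain of coagulation factor XIII, was at no more than 0.062 FPKM in any library.

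Partners, substrates and redox regulators of transglutaminase 2 gave no call among 14 tested genes apart from Itgb3 with the block. Vim, vimentin, was the most abundant, at 1525 ± 85.5 FPKM with PGE2 and 1498 ± 190 FPKM with vehicle (SD, n = 3 each; adjusted p = 0.95 with limma). Of the 14 genes 9 had a higher and 5 a lower mean with PGE2, with a median of 0.05. Fn1, fibronectin, stayed under 1 FPKM. Adgrg1, the adhesion receptor GPR56, which binds transglutaminase 2, was under the filter, at 0.125, 0.119 and 0.0751 FPKM with PGE2 and 0.901, 0.833 and 0.160 FPKM with vehicle.

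Tgm2 is a classical retinoic acid target, and the tested retinoid genes gave no call. Of the 24 listed genes 17 were under the filter and not tested, among them Rarb, Cyp26a1 and Cyp26b1. Of 7 tested genes 2 had a higher and 5 a lower mean with PGE2, with a median of -0.07, and at an unadjusted p under 0.05, which 5.46% of all tested genes passed as higher, 1 was higher and 0 lower. That gene was Rdh10, a retinol dehydrogenase, at 5.49, 5.399 and 5.503 FPKM in PGE2 replicates 1, 2 and 3, against 3.91, 4.49 and 3.94 FPKM in vehicle replicates 1, 2 and 3, with no overlap (adjusted p = 0.18 with limma). Rxrb, a retinoid X receptor, was at 27.6 ± 1.29 FPKM with PGE2 and 29.0 ± 2.56 FPKM with vehicle (SD, n = 3 each; adjusted p = 0.84 with limma).

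In the list of matrix proteases and their inhibitors, of 19 tested genes 10 had a higher and 9 a lower mean with PGE2. These 19 include the receptor genes F2r, F2rl1, F2rl2, F2rl3 and Procr, which are neither proteases nor inhibitors. St14, the membrane protease matriptase, which can activate urokinase, was at 6.92, 6.97 and 6.99 FPKM in PGE2 replicates 1, 2 and 3, against 12.97, 11.7 and 9.21 FPKM in vehicle replicates 1, 2 and 3. The PGE2 libraries were nearly equal and all lower than the vehicle libraries. The log2 difference was -0.61 (SE 0.13, adjusted p = 0.084 with limma), and the block gave adjusted p = 0.042 (0.035 to 0.30 across alternatives); it also passed without vehicle replicate 3 (0.035). Adam19, a membrane metalloprotease, was the most abundant, at 40.0 ± 5.55 FPKM with PGE2 and 38.9 ± 0.512 FPKM with vehicle (SD, n = 3 each). Mmp9, gelatinase B, stayed under 1 FPKM, and Mmp2, gelatinase A, was listed at 0.

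**Figure D4:**
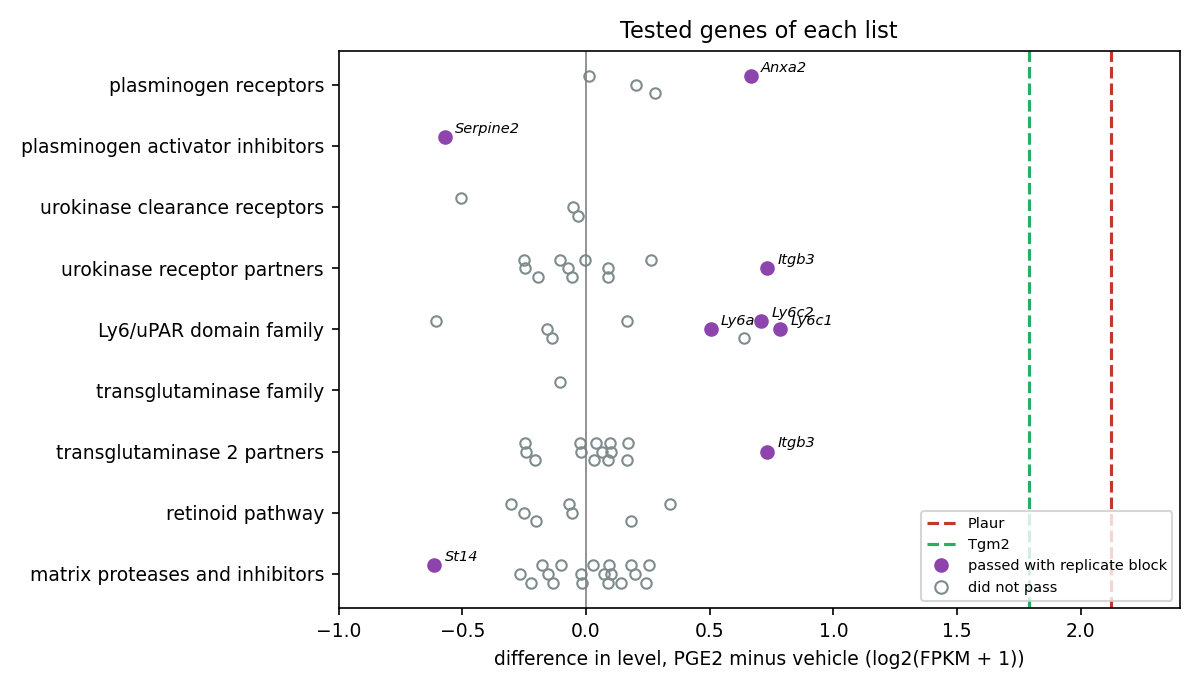
Difference in log2(FPKM + 1), PGE2 minus vehicle (horizontal axis), of each tested gene in the lists (rows; the ligand list has no tested gene). Filled points passed with the replicate block, open points did not, and dashed lines mark Plaur at 2.12 and Tgm2 at 1.79; the highest of the list genes shown, Ly6c1, lies at 0.79.

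The sort was checked against markers, since Plaur and Tgm2 are also transcripts of myeloid cells. All 9 markers of iTreg and CD4 T cells were above 1 FPKM, with a summed level of 2819 to 2853 FPKM in PGE2 libraries and 2346 to 2457 in vehicle libraries; among them Ctla4 was called as higher, and Tnfrsf18 passed with the block. Il2ra, the interleukin 2 receptor α chain, was the most abundant, at 640 ± 27.6 FPKM with PGE2 and 691 ± 59.6 FPKM with vehicle (SD, n = 3 each). Of 13 macrophage and monocyte markers 2 had a mean of at least 1 FPKM, Cd68 and Cx3cr1, and the sum was 10.4 to 12.6 FPKM in PGE2 libraries and 6.95 to 10.2 in vehicle libraries, with no overlap. Cx3cr1 was at 6.84, 5.13 and 6.86 FPKM with PGE2 and 3.45, 2.97 and 4.498 with vehicle, and passed as higher with the block alone (adjusted p = 0.13 with limma without it). The defining markers were at or near 0: Lyz2 was at no more than 0.028 FPKM with PGE2 and 0.236 with vehicle, Csf1r at no more than 0.0879 and 0.224, and Adgre1 at no more than 0.0115 and 0.0282.

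The markers of other cells differed in level between libraries. The neutrophil sum was 3.68 to 4.85 FPKM with PGE2 and 2.25 to 4.03 with vehicle, with S100a8, S100a9 and Csf3r listed at 0 in all libraries and Ltf carrying most of it. The sum of dendritic cell markers, mainly Cd74, was 38.1 to 61.3 with PGE2 and 35.4 to 59.97 with vehicle, lowest in replicate 3 of each group. The B cell sum, mainly Ighm, was lower in every PGE2 library, at 87.5 to 131 FPKM, against 132 to 235 in vehicle libraries. The CD8 T and NK cell sum, mainly Nkg7, was also lower, at 48.4 to 51.2 with PGE2 and 58.5 to 62.0 with vehicle. Other markers on this list did not follow Nkg7. Cd8b1 was higher in every PGE2 library, at 5.31, 5.60 and 5.88 FPKM with PGE2 and 4.73, 4.96 and 4.68 FPKM with vehicle. Cd8a stayed under 1 FPKM, and Ncr1 and Klrb1c were listed at 0 in all libraries. Ighm (adjusted p = 0.20 with limma) and Nkg7 (adjusted p = 0.067) passed as lower, and Klrd1 (adjusted p = 0.38) as higher, with the block alone. Mast cell and platelet markers summed to under 1 FPKM in every library, with Itga2b, the platelet integrin chain, as the most abundant. Stromal and endothelial markers summed to 10.5 to 12.2 with PGE2 and 9.18 to 10.8 with vehicle, nearly all from Pecam1, which T cells also express; Col3a1 and Pdgfra were listed at 0. The part of these differences in the levels of Plaur and Tgm2 was not tested. In such bulk samples, more cells that express a gene and more RNA per cell cannot be told apart.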

How the data were processed

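RNA was sequenced from sorted Foxp3+ iTreg, 3 libraries with PGE2 and 3 with vehicle, grouped by the sample titles. A stranded kit for polyadenylated RNA was used, per the labels' protocols. The submitters' processing notes name HISAT2, Trim Galore and the mm10 build; for versions, annotation and counting program, the entry is "not given in the sources used here". The deposited tables give, per the file headers, coverage (mean read depth, a signal), FPKM and TPM. The TPM column as deposited was taken for a score and left out, since it sums to 1.91 to 1.94 times 1000000, each locus being listed as assembled locus and as annotated gene.

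Annotated genes whose mean reached 1 FPKM were tested on log2(FPKM + 1), a scale that makes fold changes of low genes too small, with limma 3.58.1 (R 4.3.3), a variance trend, no covariate, two-sided, with Benjamini-Hochberg adjustment over 12113 genes and a threshold of 0.05. The procedure was tested on simulated data. Depth is the ratio of coverage to FPKM; 97.4% to 97.9% of single-transcript genes were within 1% of it. Counts are not at hand, so no counting intervals were computed. Whether replicate numbers pair the libraries was checked by correlating deviations from the group means across 12113 genes. Numbers 1, 2 and 3 gave 0.23, 0.31 and 0.53, all above the limit of 0.1 used for pairing. Blocked values are therefore given beside the unblocked ones where they change a call. PGE2 replicate 1 correlated more with vehicle replicate 2 (0.27) than with its own number, and PGE2 replicate 2 with vehicle replicate 1 at 0.15. Both values also pass the limit of 0.1, so the check does not settle the pairing of numbers 1 and 2. The 4 pairs of replicate 3 with another number were below 0. Deviations from a group mean sum to 0, so the positive value of number 3 draws these pairs below 0. They are thus no separate evidence for pairing. Alternatives were another pseudocount, filters, scalings, coverage, assembled loci and leaving out each library.

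The members and lists were chosen with earlier results of these data known. Named genes are the 3 members and, of each list, the called members and the most abundant tested member. Also named are the most abundant marker of each cell type, the 3 closest profiles of Plaur and Tgm2 and the nearest tested protein-coding genes. Gm20412 is named for its position, and others were chosen after their values were seen. Figures were drawn with matplotlib 3.10.9.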

Additional observations from a re-analysis of the deposited data

How the results depend on the processing

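Plaur and Tgm2 kept a higher level with PGE2, and Plau a lower one, under the other pseudocount, the scalings, the assembled locus and each left-out library; filters and the block cannot move a difference of means, and coverage per depth is tied to FPKM. The log2 difference of Plaur, 2.12, was 2.58 with a pseudocount of 0.1, 2.34 with equal sums per library and 1.84 in coverage per depth, with 2.04 to 2.22 when 1 library was left out. That of Plau, -0.23, was -0.56 with a pseudocount of 0.1 and -0.07 for the assembled locus. It was -0.31 to -0.09 when 1 library was left out, the smallest without vehicle replicate 1. Plau was not called with a lower filter or none. For its assembled locus the lower mean rests on vehicle replicate 1, at 0.944 FPKM. Vehicle replicates 2 and 3, at 0.490 and 0.449 FPKM, lay below all PGE2 libraries, at 0.493 to 0.581 FPKM. The log2 difference of Tgm2 was 1.59 to 1.89 when 1 library was left out. Of the list genes, 0 were called, against 7 with the replicate block, 1 with median-ratio scaling (Ly6c2), 1 in coverage per depth (Itgb3), and 0 to 1 when 1 library was left out (St14 without vehicle replicate 3, Itgb3 without PGE2 replicate 3). The cause was not tested. Over all genes, 69 higher and 29 lower became 33 and 12 with no filter, 215 and 180 with the block, 112 and 47 in coverage per depth, and 13 lower with equal sums. Leaving out 1 library gave 16 to 53 higher and 4 to 16 lower. The higher and lower counts were 28 and 7, 16 and 6, and 47 and 6 when the library left out was PGE2 replicate 1, 2 or 3, and 36 and 4, 29 and 4, and 53 and 16 when it was vehicle replicate 1, 2 or 3. Beyond these list genes and the markers Tnfrsf18, Cx3cr1, Klrd1, Ighm and Nkg7, the block changed no call of a list, marker or neighbouring gene. Low coverage limits Plau and Adgrg1.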
